A study of Mus musculus with 12 samples.

Results

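The genes described here were 10 targets of the transcription factor Nrf2 that keep the cell's redox balance: Nqo1, Hmox1, Gclc, Gclm, Slc7a11, Gsr, Txnrd1, Srxn1, Prdx1 and G6pdx. They were chosen by name, as all probes whose RefSeq accession belongs to those genes, which gave 16 of the 41174 probes on the array and 10 of its 17305 named genes. Srxn1, Slc7a11 and Gsr had 3 probes each and the other 7 genes had 1 probe each. A gene with several probes was represented by its brightest probe. RNA was measured in mouse embryonic fibroblasts in 4 groups of 3 samples, each sample on a single-colour array: irradiated ATM-KO cells, nonirradiated ATM-KO cells, irradiated ATM-WT cells and nonirradiated ATM-WT cells. ATM is the kinase that relays DNA double-strand breaks to the cell cycle and repair machinery, and it is absent from ATM-KO cells and present in ATM-WT cells. The irradiated groups received 4.32 Gy, and RNA was compared 72 h later. The labels give neither the Atm allele nor the age of the embryos, nor do they say that replicates were separate cultures, so p-values reflect a spread between samples that may be technical.

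Nrf2, encoded by Nfe2l2, is held in the cytoplasm by Keap1, which presents it to a Cul3 ubiquitin ligase for degradation. Oxidants and electrophiles modify cysteines of Keap1, Nrf2 then accumulates, pairs with a small Maf protein and binds antioxidant response elements in front of its target genes, while Bach1 competes for many of the same sites. The 10 genes cover the main arms of that response. Nqo1 reduces quinones and Hmox1 cleaves haem. Gclc and Gclm are the catalytic and modifier subunits of the enzyme that limits glutathione synthesis, Slc7a11 imports the cystine it needs, and Gsr recycles oxidised glutathione. Txnrd1 reduces thioredoxin, Prdx1 breaks down peroxides, Srxn1 repairs over-oxidised peroxiredoxins, and G6pdx makes the NADPH that these reductases use.

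The core of the antioxidant response element is shown first, because it is the sequence feature by which these genes are usually grouped. RefSeq promoter windows of the GRCm38.p6 assembly, from 250 bases before to 50 bases after a gene's start, were found for 7 of the 10 genes, in 9 windows. Gclc, Gsr and Hmox1 were not matched. The core TGACNNNGC, searched on both strands, lay in 5 of the 9 windows, 1 each for G6pdx, Gclm, Prdx1, Srxn1 and Txnrd1, and it lay in 12.4% of all 32851 windows of the same length. It was not found in the windows of Nqo1 and Slc7a11. The 5 matches are printed 5′ to 3′ along the gene's strand with the matched bases in capitals, and each matched the core on the opposite strand.
G6pdx, chrX:74428921-74428945, minus strand: gcgggtcaGCTCAGTCAaagcacac
Gclm, chr3:122245415-122245439, plus strand: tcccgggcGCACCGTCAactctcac
Prdx1, chr4:116685458-116685482, plus strand: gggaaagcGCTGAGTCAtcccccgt
Srxn1, chr2:152105544-152105568, plus strand: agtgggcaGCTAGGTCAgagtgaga
Txnrd1, chr10:82859106-82859130, plus strand: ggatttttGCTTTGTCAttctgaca
The capitals began 57 bases before the start of G6pdx, 134 before that of Gclm, 133 before that of Prdx1 and 92 before an annotated start of Txnrd1. In Srxn1 they began at base 29, with the start counted as base 1.

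The motif TGAGTCA, which AP-1 and small Maf proteins recognise and which can form part of an extended antioxidant response element, was also searched on both strands. It lay in 5.20% of all windows and in those of 2 of the genes, Prdx1 and Srxn1. In Prdx1 it occurred 2 times, and the copy beginning 131 bases before the start overlapped the core printed above. In Srxn1 it occurred 2 times, beginning 102 and 45 bases before the start. The 120 bases before the start of Srxn1 are printed because Srxn1 had the largest irradiation difference of the tested genes in both genotypes, with the 2 copies in capitals.
Srxn1, chr2:152105404-152105523, plus strand: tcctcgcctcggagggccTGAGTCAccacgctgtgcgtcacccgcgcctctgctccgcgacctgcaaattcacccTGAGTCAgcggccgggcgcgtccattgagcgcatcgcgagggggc
A match describes the letters of a window only. Binding was not measured.

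Each value below is a log2 signal minus the 75th percentile of its array, so 0 is the brightness of that percentile, and levels are compared between groups within a gene only. The 75th percentile ranged from 379 to 757 intensity units, 55.3% to 64.5% of probes were well above background, and 0 were saturated. The Atm probe averaged -6.55 in irradiated ATM-KO, -6.21 in nonirradiated ATM-KO, -4.02 in irradiated ATM-WT and -4.48 in nonirradiated ATM-WT cells. Atm was well above background on 1 irradiated ATM-KO, 0 nonirradiated ATM-KO, 3 irradiated ATM-WT and 2 nonirradiated ATM-WT arrays. It thus entered the test only through irradiated ATM-WT cells, where it was highest. The ATM-KO minus ATM-WT difference of Atm was -2.52 ± 0.658 (SE) after irradiation, with a limma adjusted p of 0.225, and of 0.0235 once same-numbered samples were paired. Its ATM-KO values lay near background, so neither p-value is read as a test of Atm loss. The labels do not say which part of Atm is disrupted, so this probe may lie outside it. All 11 fibroblast markers were well above background on every array, with summed linear levels of 1437 to 2322, 2155 to 2222, 1449 to 2498 and 1742 to 2695 in the 4 groups in the same order. The arrays lay on 3 slides, the first with ATM-WT samples only, the second with ATM-WT sample 3 and ATM-KO sample 1, and the third with ATM-KO samples only. Nonirradiated and irradiated samples of a number shared a slide at fixed alternating positions, so position on the slide and irradiation cannot be told apart.

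Irradiation changed none of the tested Nrf2 targets past the test's threshold in either genotype. The differences with the smallest p in each genotype were in Srxn1, higher by 0.65 ± 0.299 (SE) log2 units, or 1.57-fold, in ATM-KO cells and by 0.55 ± 0.299, or 1.46-fold, in ATM-WT cells, and in Prdx1, lower by 0.47 ± 0.235 and 0.43 ± 0.235 log2 units in ATM-KO and ATM-WT cells. Counts were read against the whole array with limma's test and Benjamini-Hochberg adjustment at 0.05 over 18430 features. In ATM-KO cells 0 of 9 tested members were called, beside 0.00543% of all features, and in ATM-WT cells 0 of 9, beside 0.445%. No member had an unadjusted p under 0.05 in either comparison. With same-numbered samples paired, still 0 of 9 were called in each genotype, beside 2.05% of all features in ATM-KO cells and 2.26% in ATM-WT cells, and the members with an unadjusted p under 0.05 numbered 4 in ATM-KO cells, beside 20.6% of all features, and 2 in ATM-WT cells, beside 15.4%.

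**Figure D1:**
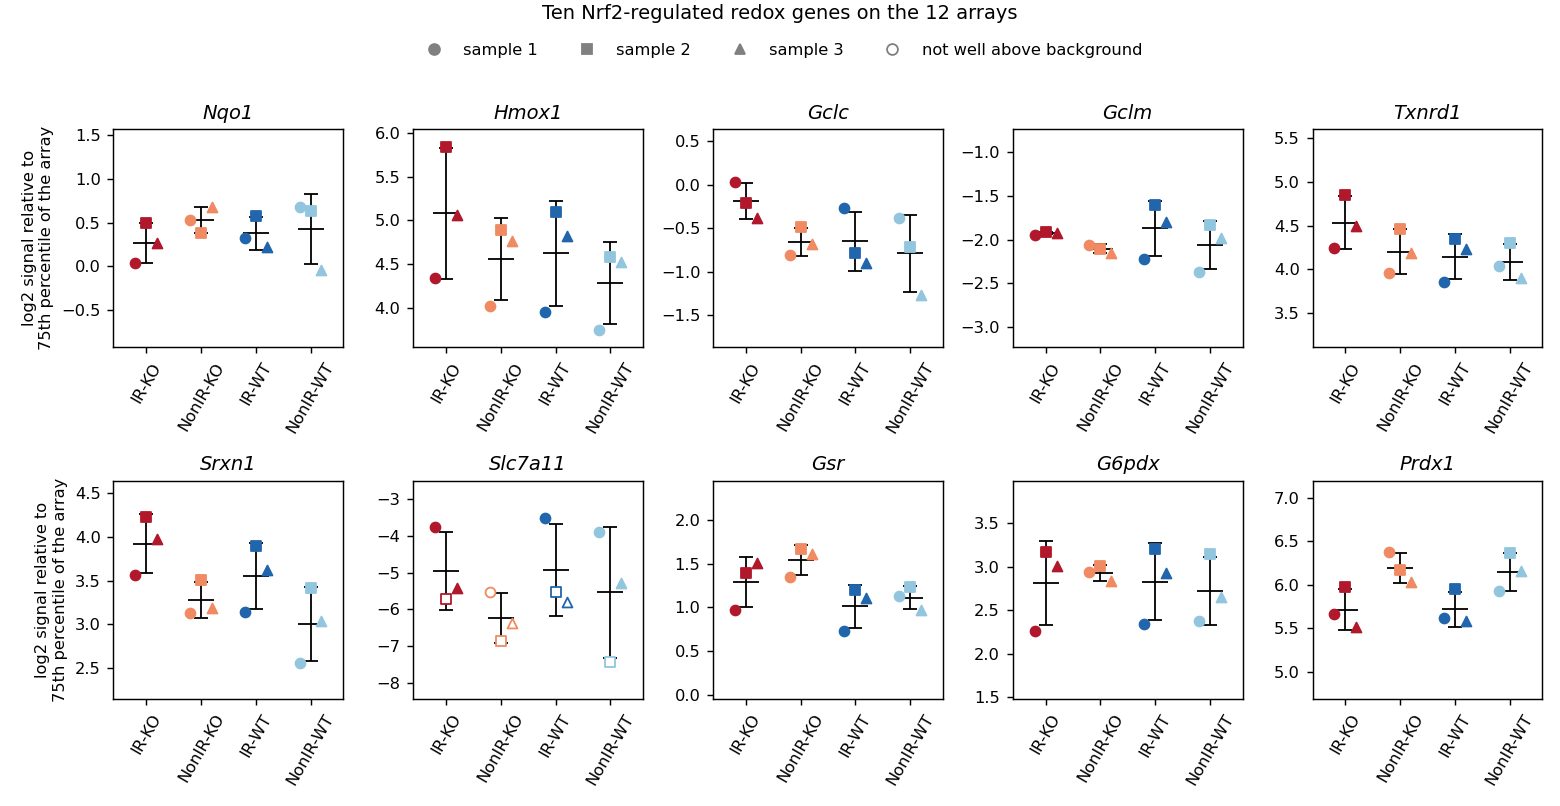
Log2 signal relative to the 75th percentile of the array for each of the 10 genes, by group, with 1 point per array, bars for the mean ± SD (n = 3), marker shapes for the sample number and open points for spots not well above background. Srxn1 sat higher in irradiated than in nonirradiated cells of each genotype and Prdx1 lower, while Hmox1 and Srxn1 were lowest in sample 1 of every group.

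Srxn1 was the clearest of the thioredoxin arm. It read 3.56, 4.23 and 3.98 in samples 1, 2 and 3 of irradiated ATM-KO cells, against 3.13, 3.51 and 3.18 in nonirradiated ATM-KO cells. All 3 irradiated arrays lay above all 3 nonirradiated ones. In irradiated ATM-WT cells it read 3.14, 3.90 and 3.62, against 2.56, 3.42 and 3.03 in nonirradiated ATM-WT cells, and there the groups overlapped. Between same-numbered samples the differences were 0.43, 0.72 and 0.80 in ATM-KO and 0.58, 0.48 and 0.59 in ATM-WT cells, positive in 6 of 6 pairs. The limma adjusted p was 0.63 in ATM-KO and 0.939 in ATM-WT cells, and 0.0944 and 0.161 with pairs. The other 2 probes of Srxn1 differed by 0.62 and 0.59 in ATM-KO cells and by 0.48 and 0.48 in ATM-WT cells, close to the brightest probe.

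Prdx1 ran the other way. Its levels were 5.66, 5.97 and 5.51 in irradiated ATM-KO cells, against 6.37, 6.17 and 6.03 in nonirradiated ATM-KO cells. The 3 irradiated arrays lay below all nonirradiated ones. In ATM-WT cells the levels were 5.62, 5.95 and 5.58 after irradiation, against 5.92, 6.36 and 6.16 without it, with an overlap of 5.95 and 5.92. The difference was negative in 6 of 6 same-numbered pairs, from -0.71 to -0.19 in ATM-KO and from -0.58 to -0.31 in ATM-WT cells. Its limma adjusted p was 0.676 in ATM-KO and 0.942 in ATM-WT cells, and 0.195 and 0.299 with pairs. Txnrd1 read 4.25, 4.85 and 4.50 in irradiated ATM-KO cells, against 3.95, 4.46 and 4.18 in nonirradiated ATM-KO cells, a difference of 0.33 ± 0.256 (SE) that was positive in each pair. In ATM-WT cells it read 3.85, 4.35 and 4.23 after irradiation, against 4.03, 4.30 and 3.90 without it, a difference of 0.06 ± 0.256 whose pairs did not all have the same sign.

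Hmox1, of the haem and quinone arm, had the widest spread of the tested genes. It read 4.34, 5.85 and 5.06 in irradiated ATM-KO cells, against 4.01, 4.89 and 4.76 in nonirradiated ATM-KO cells. In ATM-WT cells it read 3.95, 5.09 and 4.82 after irradiation, against 3.74, 4.58 and 4.52 without it. The groups overlapped in both genotypes, although the irradiated sample was the higher in all 6 same-numbered pairs. The differences were 0.53 ± 0.432 (SE) in ATM-KO and 0.34 ± 0.432 in ATM-WT cells, with limma adjusted p of 0.85 and 1, and of 0.186 and 0.492 with pairs. Nqo1, often used as the reporter of Nrf2 activity, read 0.03, 0.50 and 0.27 in irradiated ATM-KO cells, against 0.53, 0.38 and 0.68 in nonirradiated ATM-KO cells. In ATM-WT cells it read 0.33, 0.58 and 0.22 after irradiation, against 0.68, 0.63 and -0.04 without it. Its differences were -0.26 ± 0.257 and -0.05 ± 0.257 in ATM-KO and ATM-WT cells, neither clearly larger than its standard error.

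In the glutathione arm the 2 subunits of glutamate-cysteine ligase were higher on all 3 irradiated than on all 3 nonirradiated ATM-KO arrays. Gclc read 0.03, -0.22 and -0.38 in irradiated ATM-KO cells, against -0.81, -0.49 and -0.68 in nonirradiated ATM-KO cells, a difference of 0.47 ± 0.279 (SE) with a limma adjusted p of 0.762. In ATM-WT cells Gclc read -0.26, -0.79 and -0.90 after irradiation, against -0.39, -0.71 and -1.26 without it, and the groups overlapped. Gclm read -1.94, -1.91 and -1.92 in irradiated ATM-KO cells, against -2.06, -2.10 and -2.15 in nonirradiated ATM-KO cells. That difference was 0.18 ± 0.236 (SE) with a limma adjusted p of 0.905, from a spread estimated over all 4 groups. Gclm had SDs of 0.0171 and 0.0485 in irradiated and nonirradiated ATM-KO cells, and of 0.316 and 0.278 in irradiated and nonirradiated ATM-WT cells. Gclm read -2.22, -1.60 and -1.80 in irradiated ATM-WT cells, against -2.37, -1.83 and -1.98 in nonirradiated ATM-WT cells, a difference of 0.19 ± 0.236 that was positive in all 3 pairs.

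Slc7a11, the cystine transporter, was too dim to test. Its brightest probe was well above background on 5 of the 12 arrays, 2 of irradiated ATM-KO, 0 of nonirradiated ATM-KO, 1 of irradiated ATM-WT and 2 of nonirradiated ATM-WT cells. Its signals were -3.75, -5.71 and -5.43 in irradiated ATM-KO cells, against -5.51, -6.85 and -6.36 in nonirradiated ATM-KO cells. They were -3.50, -5.52 and -5.79 in irradiated ATM-WT cells, against -3.89, -7.43 and -5.27 in nonirradiated ATM-WT cells. No fold is given, since sample 2 of irradiated ATM-KO cells and all 3 nonirradiated ATM-KO samples were not well above background. Sample 1 had the highest Slc7a11 signal of its group in all 4 groups.

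Gsr and G6pdx, which recycle glutathione and supply NADPH, differed most after irradiation in Gsr of ATM-KO cells. Gsr read 0.97, 1.40 and 1.51 in irradiated ATM-KO cells, against 1.35, 1.68 and 1.62 in nonirradiated ATM-KO cells, a difference of -0.25 ± 0.239 (SE) that was negative in each pair. It read 0.73, 1.20 and 1.11 in irradiated ATM-WT cells, against 1.14, 1.24 and 0.97 in nonirradiated ATM-WT cells. The other probes of Gsr differed by -0.22 and -0.32 in ATM-KO cells and by -0.27 and -0.11 in ATM-WT cells. G6pdx read 2.26, 3.16 and 3.00 in irradiated ATM-KO cells, against 2.94, 3.01 and 2.83 in nonirradiated ATM-KO cells. In ATM-WT cells it read 2.35, 3.21 and 2.93 after irradiation, against 2.37, 3.15 and 2.65 without it. Its differences were -0.12 ± 0.317 and 0.10 ± 0.317 in ATM-KO and ATM-WT cells, and the groups overlapped in both.

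Counted without regard to the test, the irradiated and nonirradiated groups did not overlap for 4 of the 9 tested genes in ATM-KO cells, beside 17.1% of all features, and for 0 of 9 in ATM-WT cells, beside 10.2%. The 4 in ATM-KO cells were Gclc, Gclm and Srxn1, higher, beside 6.7% of all features, and Prdx1, lower, beside 10.4%. The median difference of the 9 was 0.18 in ATM-KO and 0.10 in ATM-WT cells, beside medians of -0.05 and -0.02 over all features. The 95% intervals of single genes in the fit without pairs reached from 0.505-fold to 2.77-fold in ATM-KO cells and from 0.520-fold to 2.43-fold in ATM-WT cells. With slide as a block these differences were the same, since every slide held irradiated and nonirradiated samples in equal numbers. The standard errors behind them ranged from 0.235 to 0.432, and with pairs from 0.165 to 0.215. Whether irradiation acted differently in the 2 genotypes was tested as the difference of the effects, ATM-KO minus ATM-WT: 0 of 9 members were called, beside 0.00543% of all features, and 0 had an unadjusted p under 0.05. That difference was 0.33 ± 0.395 (SE) for Gclc, 0.27 ± 0.362 for Txnrd1, 0.10 ± 0.423 for Srxn1 and -0.04 ± 0.333 for Prdx1. Its intervals reached from 0.437-fold to 2.86-fold.

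**Figure D2:**
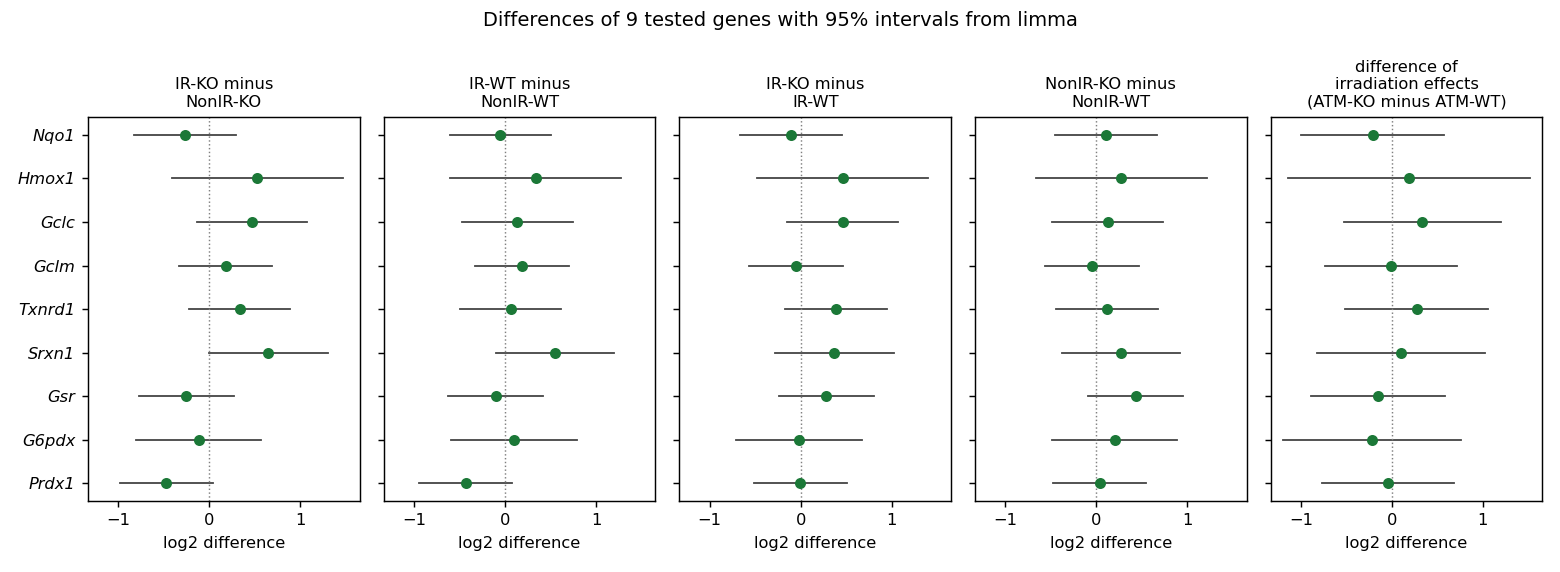
Log2 differences of the 9 tested genes in the 5 comparisons, as points with 95% intervals from limma, each panel naming its direction. Every interval holds 0, and that of Srxn1 in ATM-KO cells after irradiation, from -0.00 to 1.30, comes nearest to leaving it out.

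Between genotypes, no tested Nrf2 target was called either with or without irradiation, and the nearest was Gsr in nonirradiated cells. In nonirradiated cells 0 of 9 members were called with limma, beside 0.857% of all features, and in irradiated cells 0 of 9, beside 0.206%. No member had an unadjusted p under 0.05 in either. With same-numbered samples paired, 0 of 9 were called after irradiation, beside 0.201% of all features, and 2 of 9, Hmox1 and Txnrd1, had an unadjusted p under 0.05, beside 7.8%. Gsr averaged 1.55 ± 0.173 in nonirradiated ATM-KO cells and 1.11 ± 0.136 in nonirradiated ATM-WT cells (SD, n = 3 each), and all 3 ATM-KO arrays lay above all ATM-WT arrays. The difference was 0.43 ± 0.239 (SE), or 1.35-fold, with a limma adjusted p of 0.829, and the other 2 probes of Gsr differed by 0.13 and 0.48. Gsr was the 1 member of 9 whose groups did not overlap, beside 13.7% of all features. After irradiation Gsr was higher by 0.28 ± 0.239 in ATM-KO cells, with overlapping groups, and 0 of 9 members had groups that did not overlap, beside 6.85% of all features.

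Of the 9 differences in nonirradiated cells 8 were positive, 7 with quantile normalization, 6 with normexp background correction and 4 with slide as a block, with a median of 0.13, beside 0.04 over all features. After irradiation 5 of 9 were positive, 6 with quantile normalization or slide as a block and 7 with normexp, with a median of 0.28, beside -0.01 over all features. Of all features 45.2% were negative without irradiation and 50.9% after it. The largest member differences after irradiation were in Hmox1, which averaged 5.08 ± 0.752 in ATM-KO and 4.62 ± 0.599 in ATM-WT cells, Gclc, which averaged -0.19 ± 0.206 and -0.65 ± 0.341 in ATM-KO and ATM-WT cells, and Txnrd1, which averaged 4.53 ± 0.305 and 4.14 ± 0.259 (SD, n = 3 each). Their differences were 0.46 ± 0.432, 0.46 ± 0.279 and 0.39 ± 0.256 (SE), and each was positive in all 3 same-numbered pairs, though the groups overlapped. Prdx1 differed by -0.00 ± 0.235 after irradiation and by 0.04 ± 0.235 without it. The single-gene intervals reached from 0.631-fold to 2.32-fold without irradiation and from 0.612-fold to 2.65-fold with it.

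Genotype was largely confounded with slide. Within the second slide, the only one with both genotypes, Hmox1 in ATM-KO sample 1 minus ATM-WT sample 3 was -0.51 without irradiation and -0.48 after it, opposite in sign to the group differences. Gclc was higher there by 0.45 and 0.93, and Gsr differed by 0.38 and -0.14. These contrasts join unlike sample numbers, and Hmox1 was lowest in sample 1 of all 4 groups. Between the samples numbered 1, which lay on different slides, Hmox1 was higher in ATM-KO cells by 0.27 without and 0.40 after irradiation. Slide and sample number cannot be told apart in them. With slide as a block the median difference of the 9 genes was -0.03 in nonirradiated and 0.07 in irradiated cells. Genotype values with slide as a block rest on the second slide, and so on unlike sample numbers. Markers of macrophages and blood cells also moved with genotype: 10 of 11 were on the array and 9 were tested, of which 8 were called lower by limma in nonirradiated and 3 in irradiated ATM-KO than ATM-WT cells. With slide as a block 3 and 1 were called, with normexp 6 and 1, and with no filter 6 and 0. Of the 10, 4 were well above background on all arrays of each ATM-KO group, and 9 on all arrays of each ATM-WT group. The other tested markers thus entered only through the ATM-WT groups, where they were higher, and their calls are not independent of that filter. With the filter that asked for all 12 arrays, 4 markers remained, of which 4 were called without and 0 after irradiation. The summed linear level of the 10 was 0.639 to 0.853 in irradiated ATM-KO, 0.525 to 0.985 in nonirradiated ATM-KO, 2.88 to 4.56 in irradiated ATM-WT and 3.90 to 7.25 in nonirradiated ATM-WT cells. Adgre1 was well above background on 1 of 6 ATM-KO and 6 of 6 ATM-WT arrays, and Ptprc on 0 of 6 ATM-KO and 2 of 6 ATM-WT arrays. The part of these markers in the genotype values was not tested, and fewer cells of a type and less RNA per cell cannot be told apart in bulk RNA.

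Ordered by group mean, Hmox1, Gclc and Srxn1 all ran from irradiated ATM-KO, the highest, through irradiated ATM-WT and nonirradiated ATM-KO to nonirradiated ATM-WT cells, the lowest. Txnrd1 had the same first and last groups with the middle ones exchanged. Nqo1 and Gsr were highest in nonirradiated ATM-KO cells, and so were G6pdx and Prdx1. For each of the 10 genes, every pair of neighbours in its order overlapped in its arrays, so none of these orders separates adjacent groups beyond their spread.

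The regulators of the pathway were not called either. Nfe2l2 itself averaged 3.52 ± 0.223 in irradiated ATM-KO cells and 3.21 ± 0.105 in nonirradiated ATM-KO cells (SD, n = 3 each). Its groups did not overlap there, beside 17.1% of all features, of which those higher after irradiation made 6.7% of all. Other regulators also had groups that did not overlap there, in both directions. The difference of Nfe2l2 was 0.31 ± 0.239 (SE) with a limma adjusted p of 0.84, and in ATM-WT cells it was -0.03 ± 0.239. Keap1 differed by 0.01 ± 0.326 after irradiation in ATM-KO and by 0.24 ± 0.326 in ATM-WT cells. Bach1, the repressor of Hmox1 among other targets, differed by 0.32 ± 0.344 and 0.25 ± 0.344 in ATM-KO and ATM-WT cells, and between genotypes by -0.42 ± 0.344 without and -0.34 ± 0.344 with irradiation. Between genotypes Nfe2l2 differed by -0.12 ± 0.239 without and 0.21 ± 0.239 with irradiation, and Keap1 by 0.20 ± 0.326 and -0.04 ± 0.326.

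Beyond the 10 genes, 6 lists of other pathway genes held 69 names, of which 66 were on the array and 64 tested. In each of the 5 comparisons 0 of 64 were called higher and 0 lower by limma. Those with an unadjusted p under 0.05 numbered 3 for irradiation in ATM-KO cells, 1 for irradiation in ATM-WT cells, 4 for genotype without irradiation, 0 for genotype after irradiation and 0 for the difference of effects, beside 7.93%, 6.46%, 7.52%, 5.23% and 0.901% of all features. With same-numbered samples paired, 1 of 64 was called, for genotype without irradiation, beside 184 of 18430 features. It was Idh1, which makes NADPH in the cytosol. Idh1 was lower in nonirradiated ATM-KO than ATM-WT cells, with a difference of -1.07 ± 0.403 (SE), with a limma adjusted p of 0.471, and of 0.0337 with pairs, although the numbers did not pair those groups.

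The other 10 thioredoxin and peroxiredoxin genes lay with Prdx1. After irradiation 10 of 10 differences were negative in ATM-KO cells, with a median of -0.31, and 9 of 10 in ATM-WT cells, with a median of -0.20. Of all features 54.7% were negative in ATM-KO and 53.2% in ATM-WT cells. With quantile normalization 9 and 8 were negative, and with normexp background correction 10 and 6. With normexp the ATM-WT median of the list was -0.13, not below the -0.16 over all features. Prdx4, a peroxiredoxin of the endoplasmic reticulum, was chosen after its values were seen as the lowest of them. It averaged 4.65 in irradiated and 5.50 in nonirradiated ATM-KO cells, a difference of -0.86 ± 0.229 (SE) with a limma adjusted p of 0.275, and of 0.0602 with pairs. In ATM-WT cells it averaged 4.53 after irradiation and 5.18 without it, a difference of -0.65 ± 0.229 with a limma adjusted p of 0.506.

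The other lists were of both signs. Of the 12 regulators of Nrf2, 10 differences were positive after irradiation in each genotype, while 54.7% of all features were negative in ATM-KO and 53.2% in ATM-WT cells. After irradiation in ATM-KO and ATM-WT cells the median difference was 0.22 and 0.15 for the 12 regulators of Nrf2, -0.18 and -0.12 for 16 other glutathione genes, and -0.16 and 0.00 for 8 other NADPH supply genes. It was 0.04 and 0.03 for 10 quinone and carbonyl detoxification genes, and -0.31 and -0.17 for 8 haem and iron genes. With normexp background correction the ATM-WT median turned to 0.11 for the haem and iron genes and to 0.09 for the other glutathione genes, and it became 0.19 for the NADPH supply genes and 0.26 for the quinone and carbonyl genes. Between genotypes the list medians ranged from -0.03 for the quinone and carbonyl genes to 0.16 for the other glutathione genes without irradiation. After irradiation they ranged from -0.10 for the haem and iron genes to 0.08 for the other glutathione genes. With slide as a block the medians of the other glutathione genes were -0.14 without and -0.27 after irradiation, and those of the regulators -0.17 and -0.31.

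**Figure D3:**
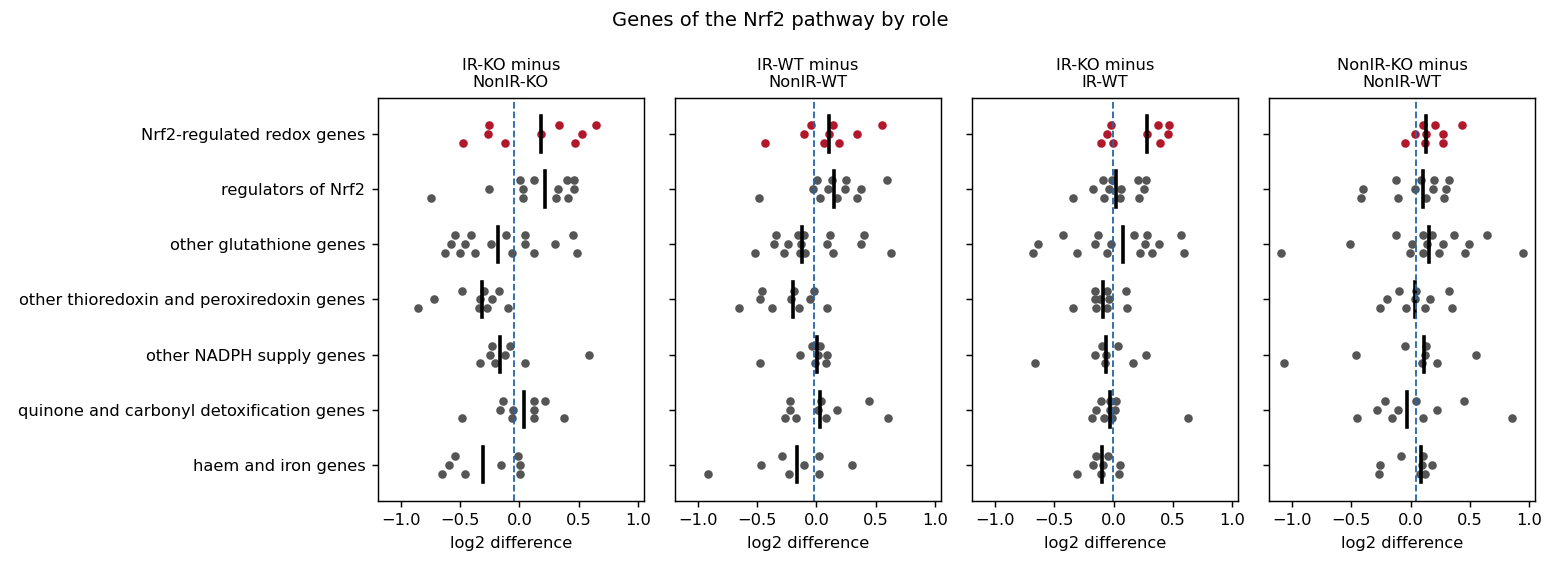
Log2 differences of the tested genes of each list in 4 comparisons, 1 point per gene, with a bar at the list's median and a dashed line at the median of all features. The 9 Nrf2-regulated redox genes (red) spread from -0.47 to 0.65 after irradiation in ATM-KO cells, and all 10 other thioredoxin and peroxiredoxin genes lie below 0 there.

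The members did not vary as a block. Over the 12 arrays the closest pairs were Hmox1 with Txnrd1 (Pearson r = 0.879), Hmox1 with Srxn1 (r = 0.878) and Txnrd1 with Srxn1 (r = 0.839). Gclm followed Srxn1 with r = 0.729 and Hmox1 followed G6pdx with r = 0.724. At the other end Gclc ran against Prdx1 (r = -0.459) and against G6pdx (r = -0.362). These are descriptions over 12 arrays that share slides, sample numbers and scaling. Hmox1 and Srxn1 were lowest in sample 1 of all 4 groups, below the other samples by 0.94 and 0.51 log2 units on average, and of all features 18.0% were lowest there in all 4 groups and 12.4% highest. Some summed marker levels moved with the sample number. The summed linear level of 6 epithelial markers was 1.82 to 4.54 in samples numbered 1 and 0.525 to 1.11 in the other samples. It was highest in sample 1 in all 4 groups, as were summed endothelial and adipocyte markers. Summed fibroblast markers were lowest there in 3 of 4, and summed skeletal muscle markers highest in 2 and lowest in 2. Linear sums follow their brightest genes, and single markers went both ways. In irradiated ATM-KO samples 1, 2 and 3, Krt18 read 1.96, -0.46 and -0.91 and Krt8 -1.15, -3.41 and -3.66, but Epcam -5.72, -5.27 and -5.21. Krt18 and Krt8 were highest in sample 1 of all 4 groups. Epcam was dim and was well above background on no nonirradiated ATM-WT array. In nonirradiated ATM-KO cells Epcam was highest in sample 1, at -4.40 against -5.71 and -5.42. Other markers in irradiated ATM-KO cells also differed in direction. Fabp4 read 2.50, 2.32 and 2.40 in irradiated ATM-KO samples 1, 2 and 3, but Pparg -1.76, -1.03 and -0.90. Myog read -1.25 and -1.46 in sample 1 of irradiated and nonirradiated ATM-KO cells. It read -2.25 and -2.57 in sample 1 of irradiated and nonirradiated ATM-WT cells, and -4.21 or lower in all other samples. Pdgfrb and Fn1 were lowest in sample 1 of all 4 groups, while Dcn, another fibroblast marker, was highest there in irradiated cells of both genotypes. The sums alone do not show whether cell types shifted, and the part of these markers in the sample 1 values was not tested. Centred on each gene's own mean, the median of the 9 genes was -0.27, 0.34 and 0.19 in irradiated ATM-KO samples 1, 2 and 3, against -0.07, 0.18 and 0.01 in nonirradiated ATM-KO samples. It was -0.33, 0.18 and -0.01 in irradiated ATM-WT samples, against -0.21, 0.06 and -0.27 in nonirradiated ATM-WT samples. Sample 2 was the highest of its group in all 4 groups.

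**Figure D4:**
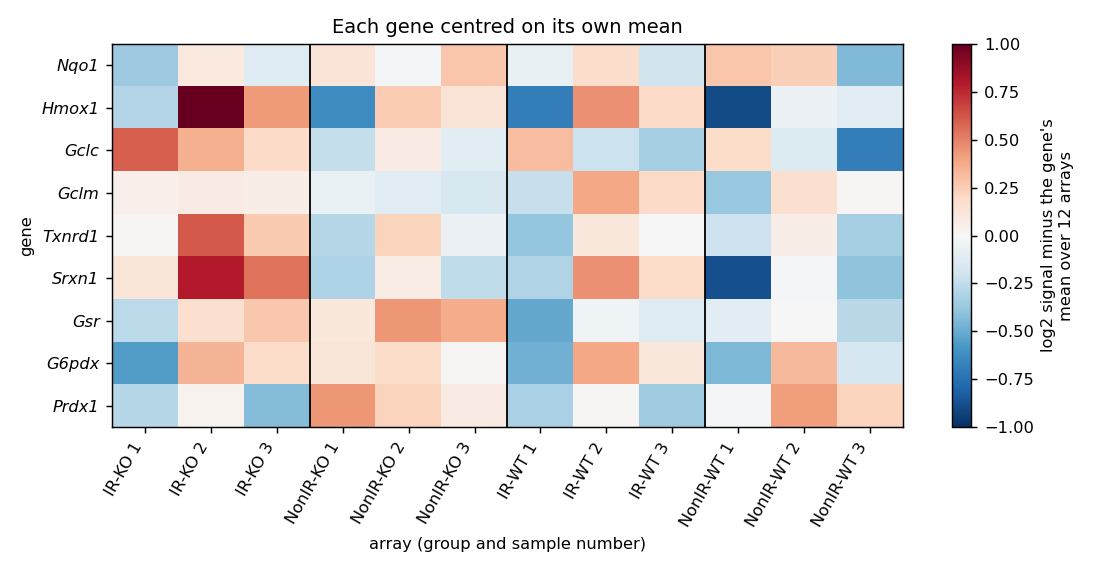
Log2 signal of the 9 tested genes on each array minus the gene's mean over the 12 arrays, red for above and blue for below, with colours that end at 1 and -1. Hmox1, Txnrd1 and Srxn1 share the strongest red in irradiated ATM-KO sample 2, and Hmox1 and Srxn1 the strongest blue in nonirradiated ATM-WT sample 1.

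Among 12797 other named genes, the one whose profile over the 12 arrays was most like a member's was Gdf15 for Srxn1 (r = 0.968, Spearman's rho = 0.986), Zfand2a for Hmox1 (r = 0.972, rho = 0.979) and Epas1 for Txnrd1 (r = 0.956, rho = 0.916). It was Gins2 for Prdx1 (r = 0.951, rho = 0.895), Sesn3 for Gclc (r = 0.926, rho = 0.93) and Mgll for Gclm (r = 0.949, rho = 0.93). It was Nacc1 for G6pdx (r = 0.984, rho = 0.909) and Eci3 for Nqo1 (r = 0.895, rho = 0.93). Each is the highest of many correlations over 12 arrays and carries no test.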

How the data were processed

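Spot intensity came from the scanner files that the authors deposited, made with Feature Extraction 10.7.1.1 per the file headers, whereas the submitters' processing notes give Agilent Feature Extraction 11.0. A log2 matrix deposited by the authors, with column medians from -0.427 to 0.27, matched 41174 of its 41250 probes. As deposited, it followed the values used here, once these were centred on each probe's median, with r of at least 0.99752. It served as an alternative.

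Control and outlier spots were dropped. Processed signal was scaled to the 75th percentile of the array on the log2 scale, and replicate spots were averaged. Probes were named by accession through the RefSeq genes of GRCm38.p6, whereas the files use mm9, and 25097 of 41174 were named. Features entered the test if some group had all 3 arrays well above background, which kept 18430 features and 9 of the 10 members. All 12 arrays were fitted with group means in limma 3.58.1 (R 4.3.3, with version 1.17.8 of data.table), giving 8 residual and 4.13 prior degrees of freedom, with Benjamini-Hochberg adjustment at 0.05. The fit was tested on simulated data.

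Deviations from the group means correlated between samples of the same number at 0.269 to 0.51 for irradiation in ATM-KO cells, 0.481 to 0.852 in ATM-WT cells and 0.218 to 0.628 for genotype after irradiation. Same-numbered samples were taken as pairs, on the data and not the labels. Samples of unlike number correlated at -0.527 to 0.335, -0.696 to 0.302 and -0.645 to 0.387 in the same comparisons. In the first and last of these the ranges of like and unlike numbers overlapped. Deviations from a group mean cancel within the group, so a high correlation of like numbers lowers those of unlike numbers. The ranges of like and unlike numbers are therefore not independent. In ATM-KO cells the unlike numbers 2 and 3 gave 0.335 and 0.284, against 0.269 for the samples numbered 2. For genotype after irradiation the unlike numbers 2 and 3 gave 0.341 and 0.387, against 0.616 for the samples numbered 2 and 0.218 for those numbered 3. No pair across genotypes shared a slide. In both comparisons the data thus set sample 1 apart more clearly than they pair samples 2 and 3. The p-values with pairs and the signs of pairs carry that limit. For genotype without irradiation samples of the same number correlated at -0.217 to 0.179. The paired fit entered there only as an alternative and for Idh1. The members and lists were chosen with earlier results of these data known. Named genes are the 10 members, Nfe2l2, Keap1, Bach1, Atm, up to 2 called genes per list and comparison, and the gene most like each member, of which 1 is not reported here. Prdx4 and the cell type markers named lie outside this rule and were chosen after their values were seen. Alternatives were normexp correction with an offset of 50 (on median spot signal, since the planned mean signal is not a column of the files read), quantile normalization, the authors' matrix, other filters, the mean of probes, slide or sample number as a block, the compared groups alone and arrays left out.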

Additional observations from a re-analysis of the deposited data

How the results depend on the processing

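No member was called under any of the 22 alternatives, and of 986 member differences 916 kept their direction and 70 turned it, 50 of these with arrays left out. The directions of Srxn1 (higher) and Prdx1 (lower) after irradiation held in both genotypes under all 22. Several of the 22 could not turn a direction, however. The filters, the sample number block and the fit of only the compared groups leave each difference as it was. So does leaving out an array of a group not compared, and, for irradiation, slide as a block. The lowest limma adjusted p of Srxn1 and Prdx1 over the 22 was 0.0944 and 0.195 in ATM-KO cells and 0.161 and 0.299 in ATM-WT cells. Among the settings that kept all arrays, normexp turned the most directions and moves the median of all features to 0.02, -0.16, 0.06, -0.13 and 0.16 in the comparisons irradiation in ATM-KO, irradiation in ATM-WT, genotype after irradiation, genotype without it, and difference of effects. The cause of the changes below was not tested.

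With normexp, Gclc became -0.035, Gclm -0.22 and Gsr 0.024 for irradiation in ATM-WT cells. Gclc became -0.023 and Nqo1 -0.036 for genotype without irradiation, Gclm 0.079 and Prdx1 0.059 after it, and Gclm 0.39, Hmox1 -0.013 and Srxn1 -0.13 for the difference of effects, and the members' median without irradiation moved to 0.35. With quantile normalization Prdx1 became -0.065 and 0.049 for genotype without and after irradiation and 0.11 for the difference of effects. With slide as a block, genotype without irradiation became -0.082 for G6pdx, -0.59 for Hmox1, -0.032 for Srxn1 and -0.10 for Txnrd1, and after irradiation -0.40 for Hmox1, 0.088 for Nqo1 and 0.12 for Prdx1.

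Counts of all features called moved too. For irradiation in ATM-KO cells (1 feature) 0 were called with normexp, quantile, no filter, the stricter filter or only those groups, and 377 with the replicate block. For irradiation in ATM-WT cells (82) they were 44 with normexp, 44 with only those groups, 139 with slide and 417 with the replicate block. For genotype after irradiation (38) they were 13 with normexp, 20 with no filter, 15 with the stricter filter, 3 with slide and 23 with only those groups. For genotype without irradiation (158) they were 62, 103, 87 and 34 with normexp, no filter, the stricter filter and slide, and 184 with the replicate block, although those numbers did not pair. For the difference of effects (1) they were 0 with normexp, no filter or slide, 2 with quantile and 4 with the replicate block. The block changed no member's call.

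With 1 array left out in turn, counts ran from 0 to 2 for irradiation in ATM-KO, 49 to 101 in ATM-WT cells, 3 to 104 for genotype after irradiation, 57 to 225 without it, and 0 to 1 for the difference. The extremes for genotype came without irradiated ATM-WT sample 2 (3), irradiated ATM-KO sample 1 (104 and 225) and nonirradiated ATM-KO sample 2 (57). The members' median ran from 0.15 to 0.20, -0.04 to 0.21, 0.08 to 0.37, 0.05 to 0.23 and -0.17 to 0.13, turning negative for irradiation in ATM-WT cells without irradiated sample 2. Without the 4 samples numbered 1, chosen after seeing the data, the counts were 0, 167, 1044, 1580 and 0, with 0 members called and a lowest member adjusted p of 0.0847, for Gsr without irradiation. With 3 arrays a group the precision is limited by their number.

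With arrays left out, the member differences that changed sign ran over these ranges. For irradiation in ATM-KO cells G6pdx ran from -0.29 to 0.16. For irradiation in ATM-WT cells G6pdx ran from -0.087 to 0.34, Gclc from -0.10 to 0.34, Gsr from -0.19 to 0.053, Nqo1 from -0.28 to 0.10 and Txnrd1 from -0.037 to 0.21. For genotype after irradiation G6pdx ran from -0.26 to 0.26, Gclm from -0.23 to 0.083, Nqo1 from -0.22 to 0.0083 and Prdx1 from -0.13 to 0.11. For genotype without irradiation Gclc ran from -0.11 to 0.40, Gclm from -0.22 to 0.069, Nqo1 from -0.13 to 0.23, Prdx1 from -0.16 to 0.15 and Txnrd1 from -0.014 to 0.24. For the difference of effects G6pdx ran from -0.46 to 0.054, Gclm from -0.18 to 0.15, Gsr from -0.29 to 0.0083, Hmox1 from -0.19 to 0.56, Nqo1 from -0.34 to 0.02, Prdx1 from -0.17 to 0.14 and Srxn1 from -0.11 to 0.32.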
